A study of Mus musculus with 8 samples.

Results

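The change in translation efficiency (TE) that accompanied leucine-free medium was measured in Gcn2 KO cells for 9100 of 21425 protein-coding genes. TE is the footprint count of a gene over its RNA count, each scaled within its assay. The TE change is the log2 footprint ratio minus the log2 RNA ratio, leucine-free over replete. A gene was included when its mean count was at least 30 over the 4 RNA-seq libraries and over the 4 footprint libraries. Of the included genes, 7112 had a mean count of 100 or more over the KO libraries of both assays, and 9 had a mean below 10 in the KO libraries of an assay.

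The cells were KRPC-A, a mouse line of pancreatic tumour cells from genetically engineered C57BL/6 tumours, with Gcn2 intact (WT) or disrupted (KO). Each genotype was kept for 1 h in medium with all amino acids (replete) or lacking leucine (leucine-free), and RNA and ribosome footprints were sequenced from each. Every library came from cells lysed in a buffer with 100 ug/mL cycloheximide, an elongation inhibitor that holds cytosolic ribosomes on mRNA, and 1% Triton X-100. That makes 8 groups of 1 library each, so every value below compares libraries and has no check against replicate cultures. The sources used here do not give the method of knockout or say if the KO line is 1 clone.

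GCN2 is a kinase that binds uncharged transfer RNA and then phosphorylates the initiation factor eIF2alpha. Phosphorylated eIF2alpha lowers general initiation and favours mRNAs with upstream open reading frames (uORFs), such as Atf4. The kinase mTORC1, which also responds to amino acids, controls mRNAs that begin with a 5' terminal oligopyrimidine (TOP) tract, which encode ribosomal proteins and elongation factors. TE values are relative within a library, and a general fall in translation would not show in them.

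The KO libraries held 37944264 (replete) and 31363754 (leucine-free) protein-coding RNA reads and 6478334 and 4168476 protein-coding footprints. The WT footprint libraries held 9252255 and 2425740, so WT leucine-free values are the least precise. Eif2ak4, which encodes GCN2, had 85.7 and 69.7 CPM of RNA in the WT replete and leucine-free libraries and 13.6 and 16.7 in the KO ones, where CPM is the count per 1000000 protein-coding reads after scaling. Its footprints were 60.2 and 65.2 CPM in WT and 7.26 and 16.2 in KO cells, so it was lower in both KO libraries of each assay. The KO values rest on 522 and 519 RNA counts and 47 and 70 footprint counts. Its KO TE change was 0.85 (95% counting interval 0.29 to 1.41), which was not called. Of the pancreatic duct and epithelium markers, Epcam had 0 counts in all 4 RNA-seq libraries, which allows up to 3 counts a library. The summed RNA level of the 15 duct markers was 298 to 388 CPM in WT cells, 557 in the KO replete library and 1186 in the KO leucine-free library. The 17 fibroblast and mesenchyme markers summed to between 3147 and 3879 CPM, with Lum and Thy1 at 0 in every RNA-seq library. The 14 acinar markers summed to at most 0.476 CPM and the 13 immune and endothelial markers to at most 1.13. None of those 27 genes was measured in TE.

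In KO cells TE moved little for most genes, and higher and lower genes were about equally many. The median TE change was -0.02 on the log2 scale, and the 5th and 95th percentiles were -0.71 and 0.72. A gene was called when its change was at least 1 in size, a 2-fold change, and its counting interval excluded 0. By that rule 143 genes were called higher (1.57% of the 9100) and 130 lower (1.43%). The call covers counting error only, and it favours genes with few reads. The median mean footprint count was 68.5 in the genes called higher and 95.25 in those called lower, against 251.5 over all genes. When a call also had to exceed 3 SDs of genes with similar counts, 24 higher and 29 lower genes were left. Calls named below that did not pass include those of Atf3 (-2.63 SDs), Cpn1 (-2.92), Ahsa2 (2.77) and Col1a1 (-2.67). Those of Hnrnpf (-2.03), Bnip3 (2.07), Fuca1 (2.44) and Hist1h4a (2.65) did not pass either. With library totals in place of trimmed means the split was 192 higher and 94 lower. The highest value, 5.41 for Chst11, rests on 10 and 0 RNA counts in the KO libraries against 1538 and 2105 footprint counts, and is no measure of size. Chst11 was singled out after its value was seen.

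In most called genes RNA and footprints lay on opposite sides of 0, and the footprint ratio was the larger. Of the 143 genes called higher, 121 had RNA and footprints on opposite sides of 0, with a median RNA ratio of -0.30 and a median footprint ratio of 0.85. Of the 130 called lower, 112 did, with medians of 0.47 in RNA and -0.70 in footprints. Both values enter the TE change, so an error in either moves it, and the counts given here for the called genes describe the calls and support nothing further. Footprints were themselves called higher in 40 of the former, against 1.41% of all genes, and lower in 27 of the latter, against 0.56%. RNA was called lower in 22 of the former and higher in 31 of the latter. In 82 and 73 genes neither assay was called alone. Footprints gave the larger part in 100 of the higher and 81 of the lower genes. More than 20% of exonic bases were shared with another gene in 16 of the higher and 14 of the lower genes, against 503 of all 9100. Reads in shared exons were not counted for either gene.

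**Figure D1:**
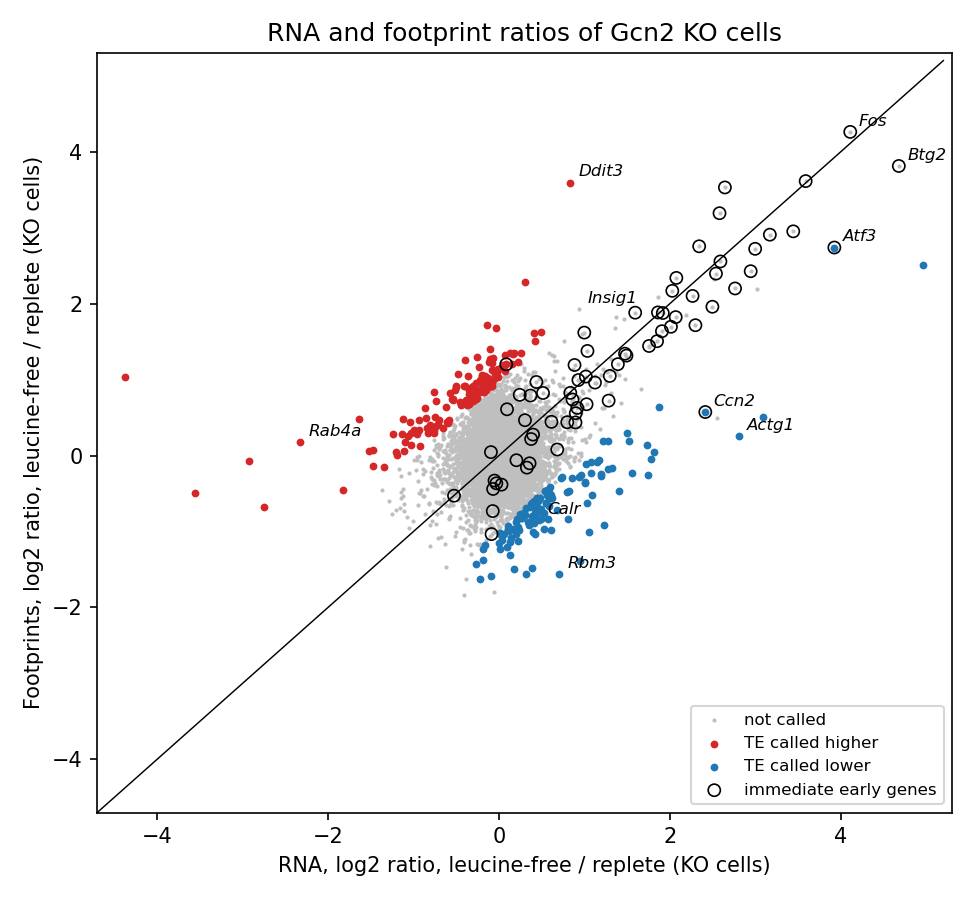
Each point is 1 of 9100 genes in KO cells, with the log2 ratio of leucine-free over replete medium in RNA on the x axis and in footprints on the y axis. The diagonal marks no TE change; 143 genes called higher in TE (red) lie above it, 130 called lower (blue) below it, and many immediate early genes (rings) lie near it with both ratios above 0.

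Among genes with a mean KO count of at least 100 in both assays, the lowest TE change belonged to Rbm3, which encodes a cold-inducible RNA-binding protein. The gene (ENSMUSG00000031167) is on the minus strand of chromosome X, from 8138975 to 8145880 in GRCm38. Its RNA was 23.2 CPM in the KO replete library and 38.0 in the leucine-free one, while its footprints were 47.3 and 16.0 CPM. RNA was the higher value without leucine and footprints the lower, and the TE change was -2.27 (-2.66 to -1.87), a 4.81-fold fall. In WT cells it was -0.61.

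Calr encodes calreticulin, a calcium-binding chaperone of the endoplasmic reticulum, and its large counts make it the most precise of the 12 lowest genes. The gene (ENSMUSG00000003814) is on the minus strand of chromosome 8, from 84841850 to 84846934 in GRCm38. RNA counts were 17855 (replete) and 20083 (leucine-free), and footprint counts were 9714 and 3599 in the same order, which is kept for all pairs of KO values below. The TE change was -1.32 (-1.38 to -1.26), against -0.74 in WT cells.

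Several of the 12 lowest genes had near-constant RNA and fewer footprints. Arrb2, which encodes the receptor adaptor beta-arrestin 2, had 21.8 and 24.7 CPM in RNA and 26.3 and 9.27 in footprints, a TE change of -1.67 (-2.18 to -1.16). Washc5, a subunit of the WASH complex that nucleates actin on endosomes, had 282 and 300 CPM in RNA and 152 and 65.8 in footprints, a change of -1.30. Atp6v0c, the proton-channel subunit of the vacuolar ATPase, had 34.9 and 40.9 CPM in RNA and 47.0 and 21.6 in footprints, a change of -1.35. In these genes the footprint level fell and the RNA level moved by less than 0.25 on the log2 scale.

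In other low genes the RNA was higher without leucine, and the footprints rose by less or were lower. Ccn2, an early gene for a secreted matrix protein, had 95.5 and 510 CPM in RNA and 77.7 and 116 in footprints. Its footprint ratio of 0.57 (0.39 to 0.76) was below its RNA ratio of 2.41, a TE change of -1.84 (-2.03 to -1.66). Of its exonic bases 23.2% were shared with another gene. Chka, the choline kinase of phospholipid synthesis, had 108 and 188 CPM in RNA and 114 and 82.1 in footprints, a change of -1.27 (-1.46 to -1.08). Dnaja1, a co-chaperone of Hsp70, had 36.2 and 46.3 CPM in RNA and 52.1 and 27.6 in footprints, a change of -1.27 (-1.59 to -0.95). Smg9, a factor of nonsense-mediated mRNA decay, had 165 and 334 RNA counts and 205 and 122 footprint counts, a change of -1.48. Cpn1, which encodes the catalytic chain of carboxypeptidase N, stood at -1.36 from 83 and 136 RNA counts. Olfml2b stood at -1.58 and Ccdc58 at -1.28. In WT cells none of the 12 lowest genes was called.

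Among the 12 highest genes, RNA was level or lower without leucine and footprints were higher. Sept2, a septin of the cytoskeleton, led with 12.9 and 12.6 CPM in RNA and 10.4 and 33.4 in footprints, a TE change of 1.71 (1.25 to 2.17), though 41.8% of its exonic bases were shared. It was also called higher in WT cells, at 1.10. Jak2, a tyrosine kinase of cytokine receptors, had 105 and 75.5 CPM in RNA and 17.1 and 36.2 in footprints. Its TE change was 1.55 (1.19 to 1.91) in KO cells and -0.32 in WT cells. The Jak2 gene (ENSMUSG00000024789) is on the plus strand of chromosome 19, from 29251828 to 29313080 in GRCm38.

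Vps54, a subunit of the complex that tethers endosome vesicles at the Golgi, had 314 and 293 CPM in RNA, 162 and 261 footprint counts and a change of 1.37 (1.09 to 1.66). Stard3nl, a late endosome membrane protein, had 1913 and 1205 RNA counts and 169 and 234 footprint counts, a change of 1.41 (1.11 to 1.72). Ift57, a subunit of the intraflagellar transport particle, had 384 and 171 RNA counts and 279 and 288 footprint counts, a change of 1.49 (1.14 to 1.84). Its raw footprint counts were close, but after scaling its footprints were 43.1 and 66.8 CPM, a log2 ratio of 0.63 (0.39 to 0.87). Its RNA ratio was -0.86, so footprints were higher and RNA was lower. The others were Uhmk1, a serine/threonine kinase, at 1.35, Bcl7c, a chromatin remodelling subunit, at 1.32, the kinesin Kif1c at 1.26, Ahsa2 at 1.26, Map1lc3a, an autophagosome protein of the LC3 family, at 1.26, the adaptor Nck2 at 1.23 and the ubiquitin ligase Wwp1 at 1.23. Of the exonic bases of Ahsa2, 50.2% were shared.

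**Figure D2:**
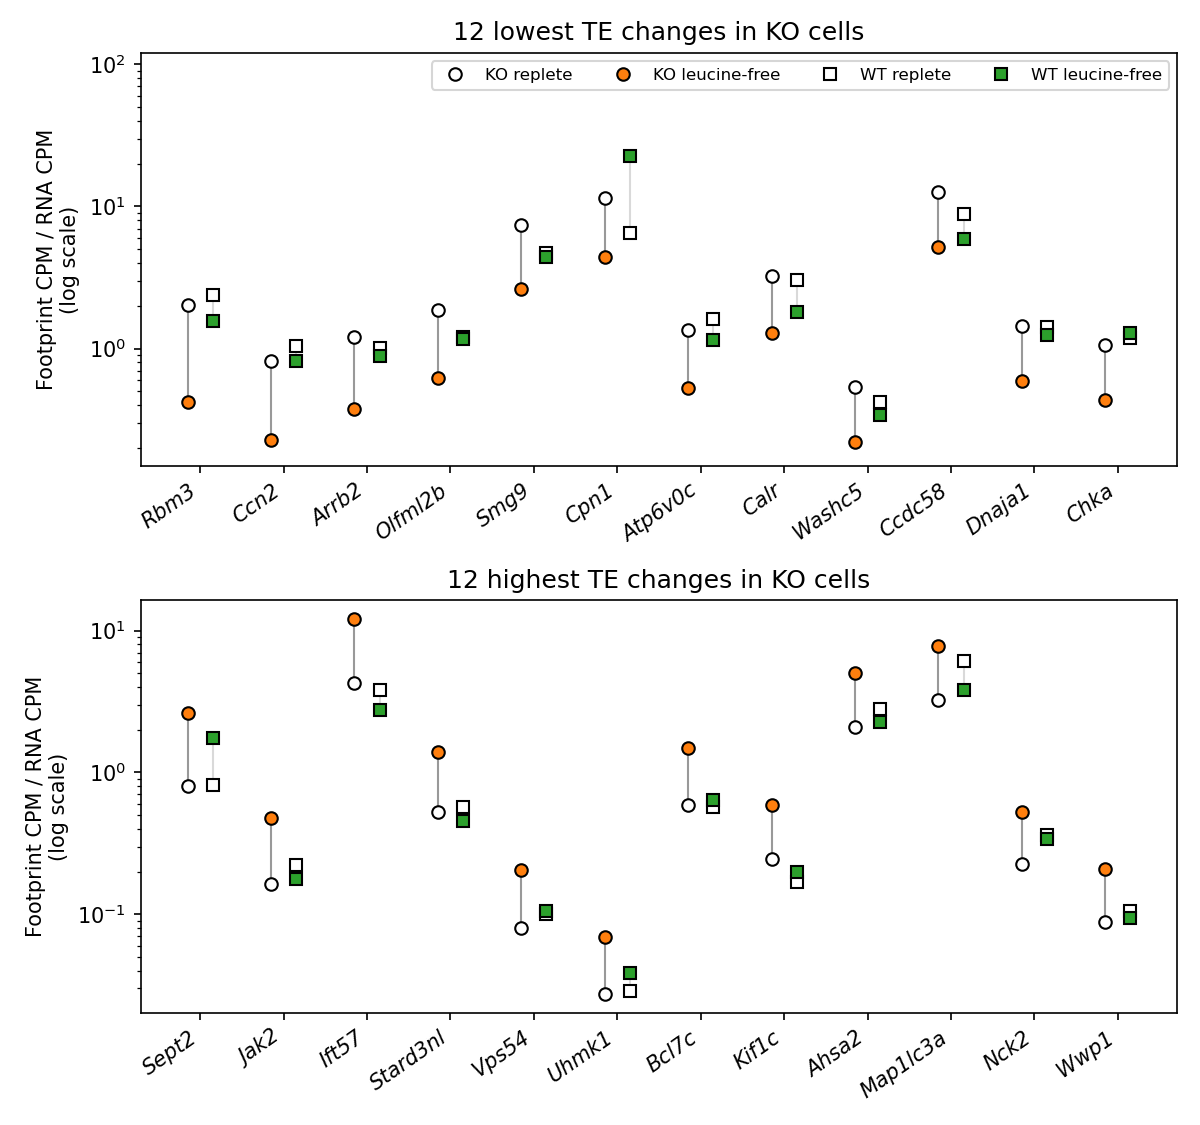
The footprint level over the RNA level (CPM over CPM, log axis) in each of the 4 conditions for the 12 lowest and the 12 highest TE changes in KO cells, without error bars. In KO cells Rbm3 moved from 2.04 to 0.421 and Jak2 from 0.163 to 0.479 without leucine, while in WT cells they moved from 2.38 to 1.56 and from 0.222 to 0.178.

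RNA that was higher without leucine was in most cases matched by footprints, whereas RNA that was lower was not. In RNA 104 genes were called higher (1.14%) and 38 lower (0.418%). Of the 104, 85 had footprints above 0, against 49.3% of all genes, and 56 were also called higher in footprints. Their medians were 1.45 in RNA and 1.05 in footprints, and 31 of them were called lower in TE. Of the 38, 22 had footprints below 0, against 50.7% of all genes, 0 were called lower in footprints, and 22 were called higher in TE. The RNA ratio is part of the TE change, so those TE counts follow in part from the choice of genes. Their medians were -1.16 in RNA and -0.16 in footprints. Those 38 genes had few reads, with median RNA counts of 121.5 and 39 and median footprint counts of 64 and 37. Over all 9100 genes the RNA and footprint ratios had a Spearman correlation of 0.06 across genes, which share libraries and are not independent.

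Immediate early genes, which respond to growth and stress signals without new protein synthesis, had more RNA and more footprints without leucine, with TE below 0 in most. The 68 measured members had medians of 1.08 in RNA, 1.12 in footprints and -0.17 in TE, and a Spearman correlation of 0.92 between RNA and footprints. In TE 22 were above 0 and 46 below, against 51.7% of all genes below 0, and 1 was called higher and 2 lower. The WT median was 0.19 and the KO minus WT median -0.38, with 47 of 68 below 0. Fos, a subunit of the AP-1 transcription factor, had 9.66 and 167 CPM in RNA and 11.9 and 230 in footprints, so its TE change was 0.15 (-0.22 to 0.52). Zfp36, an mRNA decay factor, had 30.7 and 369 CPM in RNA and 37.4 and 459 in footprints, a TE change of 0.02 (-0.19 to 0.24). Both genes had over 10 times more RNA and footprints in the leucine-free library, in near equal proportion.

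Other early genes sat to either side of 0 in TE. Btg2, an antiproliferative gene, had TE at -0.87 (-1.12 to -0.62), Egr2, a zinc-finger transcription factor, at -0.49, Fosb, an AP-1 subunit, at -0.26 and Nr4a1, an orphan nuclear receptor, at 0.41. Atf3, a stress transcription factor, was called lower, with 129 and 1592 RNA counts, 88 and 394 footprint counts and a TE change of -1.19 (-1.61 to -0.76). That call did not pass the 3 SD rule. Spry2, a feedback inhibitor of receptor tyrosine kinase signalling, was called higher. It had 73.3 and 77.8 CPM in RNA and 45.1 and 104 in footprints, a TE change of 1.12 (0.89 to 1.34), against -0.04 in WT cells. Beyond the early genes, Insig1, a sterol-regulated retention protein of the endoplasmic reticulum, had 275 and 526 CPM in RNA and 75.7 and 287 in footprints. Its TE change of 0.99 (0.83 to 1.14) fell just short of a call.

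Replication-dependent and other histone genes also had more RNA and footprints together. The 56 measured histone genes had medians of 0.68 in RNA, 0.81 in footprints and -0.08 in TE, with 4 called higher and 3 lower in TE. Hist1h2ad was the highest, with an interval of 1.02 to 2.17, from 84 and 40 RNA counts and 396 and 472 footprint counts. Hist1h1a, a linker histone, was the lowest at -2.45 (-4.45 to -0.46), from 2 and 63 RNA counts. H2afj stood at -1.77 and Hist2h2be at -1.22. Histone copies are near identical, so reads that map to several of them were not counted, and single values are uncertain. The list's median log2 footprint over RNA level in WT replete cells was 4.54, the highest of any list. Their RNA levels were thus low beside their footprints, which limits the RNA ratios and TE changes of these genes.

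Ribosomal proteins form the ribosome with ribosomal RNA, and their mRNAs carry a 5' TOP tract. In KO cells their TE was close to that of all genes. The 24 measured small-subunit genes had a median of -0.13 with none called, and the 41 large-subunit genes a median of 0.04 with 3 called higher and 1 lower. The WT medians were -0.88 and -0.57. Members ran from -0.94 for Rps18 to 0.78 for Rps20 in the small subunit. In the large subunit the lowest was Rplp2, which was called lower at -1.05 (-1.19 to -0.91) and was not called with library totals, at -0.97, or with the length trend removed, at -0.97. The highest large-subunit value was 1.53. Rpl39 was among those called higher, at 1.25 (0.78 to 1.71) from 71 and 98 footprint counts.

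The starts of some of these genes are shown because the tract is the feature that groups them. Each window is taken from RefSeq on the GRCm38.p6 build and runs from 10 bases before the annotated start to 20 from it. Capitals mark the longest pyrimidine tract, a C followed by at least 6 bases that are C or T, on the gene's own strand. The first marked base lies at -6 in Rack1, -5 in Eef1a1, -4 in Rpl27a, -2 in Rps24 and Rps18 and 3 in Rpl13a. Negative positions are before the annotated start, so a marked tract need not be the first bases of the mRNA.
Rpl13a, chr7:45128726-45128755, minus strand: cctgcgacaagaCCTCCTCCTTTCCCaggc
Rps24, chr14:24490668-24490697, plus strand: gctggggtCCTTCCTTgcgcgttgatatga
Rps18, chr17:33955646-33955675, minus strand: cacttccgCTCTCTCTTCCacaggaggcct
Rpl27a, chr7:109519185-109519214, plus strand: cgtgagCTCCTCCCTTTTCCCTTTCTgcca
Rack1, chr11:48800350-48800379, plus strand: gccgCTCTTTCTTTTTCTCCacagggtcgt
Eef1a1, chr9:78481705-78481734, minus strand: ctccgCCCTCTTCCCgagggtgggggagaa

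These 6 genes were chosen after their values were seen, to show tracts beside unlike TE changes. Rpl13a had 8.12 and 9.83 CPM in RNA and 72.3 and 116 in footprints in KO cells, a TE change of 0.40 (0.11 to 0.69), against -1.38 in WT cells. Rps24 stood at 0.13 in KO and -1.11 in WT cells, and Eef1a1, the elongation factor that delivers aminoacyl-tRNA, at 0.24 and -0.54. Rps18 was low in both, at -0.94 in KO and -1.32 in WT cells, and Rack1, a scaffold protein of the small subunit, stood at -0.37 and -1.01. Rpl27a was called higher in KO cells, at 1.05 from 39 and 57 footprint counts, and stood at 0.63 in WT cells. With a prior count of 5 the Rpl27a value was 0.95 and was not called.

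In KO cells the median TE change was alike in genes with and without the tract. It was present in 4440 of 32851 RefSeq start windows (13.5%), in 1186 of the 7304 measured genes with a window (16.2%) and in 24 of 49 ribosomal protein genes with a window (49.0%). The KO median was -0.02 in measured genes with the tract and -0.02 in those without. Among ribosomal protein genes it was -0.03 with and -0.08 without the tract. In WT cells those medians were -0.84 and -0.74. Over all measured genes the WT medians were -0.03 with and -0.02 without the tract. The tract as marked here did not part those genes in WT cells either, so the KO medians cannot show whether a tract effect was lost.

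Other TOP mRNAs, which encode elongation factors, poly(A)-binding protein and their partners, had a KO median of -0.29, and 19 of 25 were below 0 against 51.7% of all genes. Pabpc1, the cytoplasmic poly(A)-binding protein, was the highest. Its gene (ENSMUSG00000022283) is on the minus strand of chromosome 15, from 36595661 to 36609668 in GRCm38. It had 736 and 613 CPM in RNA and 489 and 637 in footprints in KO cells, a TE change of 0.65 (0.57 to 0.72). In WT cells RNA was 761 and 941 CPM and footprints were 489 and 99.0 CPM, a change of -2.61. The replete footprint levels were alike in KO and WT cells, and the leucine-free levels stood apart. Nap1l1, a histone chaperone, was called lower at -1.04 (-1.22 to -0.86), a value of -0.96 with library totals. Eef2, the translocation factor, stood at -0.39 (-0.42 to -0.35).

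Initiation factors had a median of -0.20, with 0 of 44 called higher and 1 lower. That member was Eif4ebp1, the repressor of the cap-binding protein, with 21.1 and 30.6 CPM in RNA, 78.5 and 56.8 in footprints and an interval of -1.26 to -0.74. It is at the edge of the rule, and was not called with library totals, with a prior count of 5 or with the length trend removed. Eif4e, the cap-binding protein, was the highest at 0.70 (0.41 to 0.98). Eif5, which activates GTP hydrolysis by eIF2, had 587 and 336 CPM in RNA and 289 and 126 in footprints, a TE change of -0.39. The 16 elongation and termination factors had a median of -0.20 and the 60 ribosome biogenesis factors one of -0.18, with 0 of 76 called. Npm1, a nucleolar chaperone, was the lowest of the latter at -0.79. The 26 factors of ribosome stalling and rescue had a median of -0.04, again with 0 called.

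Cytosolic aminoacyl-tRNA synthetases, which charge transfer RNA with amino acids, had TE below 0 throughout with the main scaling. All 23 measured members were below 0, against 51.7% of all genes, with a median of -0.30 and 0 called. The medians were 0.09 in RNA and -0.27 in footprints. Members ran from -0.90 for Aimp1, a scaffold of the multi-synthetase complex, to -0.04 (-0.20 to 0.12) for Cars, the cysteine enzyme. Lars, the enzyme that charges leucine, had 219 and 198 CPM in RNA and 525 and 350 in footprints, a TE change of -0.44 (-0.54 to -0.34), against 0.08 in WT cells. With library totals the list median was -0.21, so the sign of a member as near 0 as Cars depends on the scaling. The 17 mitochondrial synthetases had a median of -0.09, with 8 above and 9 below 0.

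uORF mRNAs, whose main reading frame is translated more when eIF2alpha is phosphorylated, were mostly a little below 0 in TE in KO cells. The 13 measured members had a median of -0.11 in KO and 0.71 in WT cells. In KO cells 10 were below 0, against 51.7% of all genes, and in WT cells 12 were above 0, against 4339 of all 9100. Atf4, the main transcription factor of the response, had 465 and 528 CPM in RNA and 199 and 212 in footprints, a KO TE change of -0.10 (-0.22 to 0.03). Its WT change was 0.71 (0.60 to 0.83). Ppp1r15a, which encodes the inducible eIF2alpha phosphatase subunit GADD34, stood at -0.11 (-0.76 to 0.54) in KO and 1.07 in WT cells.

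A pair of uORF mRNAs were called in KO cells, in opposite directions. Ppp1r15b, which encodes the constitutive phosphatase subunit CReP, had 915 and 992 CPM in RNA and 111 and 55.4 in footprints, a change of -1.11 (-1.33 to -0.90). Its WT change was 0.14. Ddit3, which encodes the stress factor CHOP, had 3.60 and 6.41 CPM in RNA and 0.618 and 8.58 in footprints, from 4 and 37 footprint counts. Its change was 2.76 (1.32 to 4.21) in KO and 2.50 (1.75 to 3.25) in WT cells, and the KO minus WT difference was 0.26 (-1.37 to 1.89). Footprints were counted over whole exons, so uORF and main-frame footprints are not separated. The 24 targets of ATF4 and CHOP had a median of -0.02, with 12 above and 12 below 0, and its sign changed with the scaling.

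Amino acid uptake and sensing genes stayed near the level of all genes. The 18 measured amino acid transporters had a KO median of -0.16 with 0 called, and a WT median of 0.20. Slc7a5 and Slc3a2, the subunits of the leucine transporter LAT1, stood at 0.22 (0.10 to 0.33) and 0.02 (-0.09 to 0.12). The 42 genes of amino acid sensing and eIF2alpha kinases had a median of 0.05 with 0 called. Branched-chain amino acid catabolism, which breaks leucine down, had a median of -0.31, with 18 of 24 below 0. Acaa2, a thiolase, was its 1 called member at -1.01 (-1.23 to -0.79), and was -0.93 with library totals. Bckdk, the kinase that inhibits branched-chain ketoacid dehydrogenase, was the highest at 0.61.

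Tubulin and glycolysis genes had the lowest list medians. The 16 glycolysis genes had a KO median of -0.52 and a WT median of 0.01, with 13 below 0 and 0 called. Ldha, lactate dehydrogenase, had 545 and 662 CPM in RNA and 610 and 402 in footprints, a TE change of -0.88 (-0.97 to -0.80). Gapdh had 214 and 159 CPM in RNA and 83.0 and 35.5 in footprints, a change of -0.79 (-1.06 to -0.53), against 0.47 in WT cells. Gapdh has many near-identical copies in the genome, so part of its reads may not be counted. The highest was Pfkl, a phosphofructokinase, at 0.30.

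The 14 tubulin genes had a KO median of -0.56 and a WT median of -0.18, with 12 below 0 and 1 called. Tuba1b had 9866 and 9564 RNA counts but 401 and 155 footprint counts, a change of -1.04 (-1.31 to -0.77). It was -0.96 with library totals or with the length trend removed, and was then not called. Tubb3, a neuronal beta-tubulin, had 5.35 and 3.48 CPM in RNA and 39.2 and 14.1 in footprints, a change of -0.85. Both assays were lower for Tubb3, footprints by more. Tubulins share much of their sequence, so multiply mapped reads were lost to an unknown extent.

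Actin and contractile genes had a KO median of -0.34, with 26 of 31 below 0 and 2 called lower. Tpm2, a tropomyosin, had 72 and 77 RNA counts and 484 and 161 footprint counts, a change of -1.40 (-1.93 to -0.87). Actg1, cytoplasmic gamma-actin, stood at -2.55 (-3.40 to -1.69) from 28 and 161 RNA counts and 45 and 36 footprint counts. These counts are low for an abundant actin with near-identical copies, and its value is uncertain. Giant cytoskeletal genes had a KO median of 0.02 and a WT median of 0.48, with 23 of 25 above 0 in WT cells. The KO sign changed when the length trend was removed. Plec, the linker protein plectin, was the lowest of them at -0.62.

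Collagens, integrins and matrix genes had medians of 0.10 in RNA, -0.18 in footprints and -0.33 in TE, and 24 of 28 were below 0. Col3a1 had 1542 and 1782 CPM in RNA and 1402 and 783 in footprints, a change of -1.05 (-1.11 to -0.99), which was -0.97 and not called with library totals. Col1a1 stood at -1.86 (-2.54 to -1.18) from 110 and 26 footprint counts. Both collagens are also on the mesenchyme marker list.

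Nuclear-encoded oxidative phosphorylation genes had a KO median of -0.33 and a WT median of -0.50, with 50 of 71 below 0 in KO and 69 of 71 in WT cells. In KO cells 1 was called higher and 3 lower. Cox5a, a cytochrome c oxidase subunit, had 36.0 and 49.3 CPM in RNA and 240 and 143 in footprints, a change of -1.20 (-1.37 to -1.03). Atp5d, a subunit of ATP synthase, stood at -1.14 (-1.27 to -1.01). Ndufb4 and Ndufa6, subunits of complex I, stood at -2.33 and 1.26, from 56 and 88 and from 49 and 17 RNA counts. The 75 mitochondrial ribosomal proteins had a median of -0.28. Genes of the mitochondrial genome itself stood on the other side, with a median of 0.20 and 0 called. Of the 7 measured, 6 were above 0, against 48.3% of all genes. They ran from -0.36 for mt-Nd4, of complex I, to 0.42 for mt-Cytb, cytochrome b.

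Selenoproteins had the highest list median. They contain selenocysteine, inserted at a UGA codon. The median was 0.35 in KO and 0.00 in WT cells, and 14 of 16 members were above 0 in KO cells against 48.3% of all genes. RNA had a median of -0.10 and footprints one of 0.16. With library totals the TE median was 0.43. Selenom, an oxidoreductase of the endoplasmic reticulum, was the 1 called member, at 1.01 (0.21 to 1.81) from 36 and 44 footprint counts, and was not called with a prior count of 5. Selenoh was the lowest at -0.38. Outside the list, Eefsec, the elongation factor for selenocysteine, stood at -0.76 (-1.15 to -0.38).

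Lysosome genes had unlike medians by kind. The 48 lysosomal hydrolases, which digest engulfed material, had a KO median of -0.32 with 35 below 0, and 1 was called each way. Sgsh, a sulfamidase, was the lowest at -1.06, from 57 and 27 footprint counts, and was not called with library totals or with a prior count of 5. Fuca1, a fucosidase, had 22.2 and 19.1 CPM in RNA and 18.2 and 33.4 in footprints, a change of 1.09 (0.71 to 1.47). The 34 lysosomal membrane and v-ATPase genes had a median of 0.01, and Ostm1, a partner of a lysosomal chloride transporter, was the highest at 0.90.

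Macropinocytosis and endosome genes, which take up extracellular protein, had a median of -0.05 over 50 members that became 0.035 with library totals. Rab4a, a GTPase of endosome recycling, was the 1 called, at 2.51 (1.75 to 3.27). It had 157 and 25 RNA counts and 86 and 65 footprint counts, so the RNA was lower and the footprint level held. The 37 autophagy genes had a median of 0.07 with 2 called higher. These were Map1lc3a and Bnip3, a mitophagy receptor, which stood at 1.46 (0.77 to 2.16) from 38 and 42 footprint counts.

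Odc1, the first enzyme of polyamine synthesis, was called higher in KO cells. The gene (ENSMUSG00000011179) is on the plus strand of chromosome 12, from 17544794 to 17551505 in GRCm38. It had 249 and 218 CPM in RNA and 43.7 and 84.1 in footprints, a change of 1.14 (0.91 to 1.36). In WT cells footprints were 43.8 and 19.6 CPM, from 397 and 47 counts, and the change was -1.04 (-1.48 to -0.60). Replete levels were alike and leucine-free levels stood apart. Fth1, the ferritin heavy chain, stood at 0.23 in KO and -1.85 in WT cells. Osgin1, an oxidative stress gene, had 53 and 53 RNA counts and 39 and 128 footprint counts, a change of 1.98 (1.23 to 2.73). It was the 1 call among 25 cystine, glutathione and NRF2 genes. Trp53, the p53 tumour suppressor, stood at 0.95 (0.60 to 1.30) from 415 and 572 footprint counts, just short of a call, and was called at 1.03 with library totals.

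**Figure D3:**
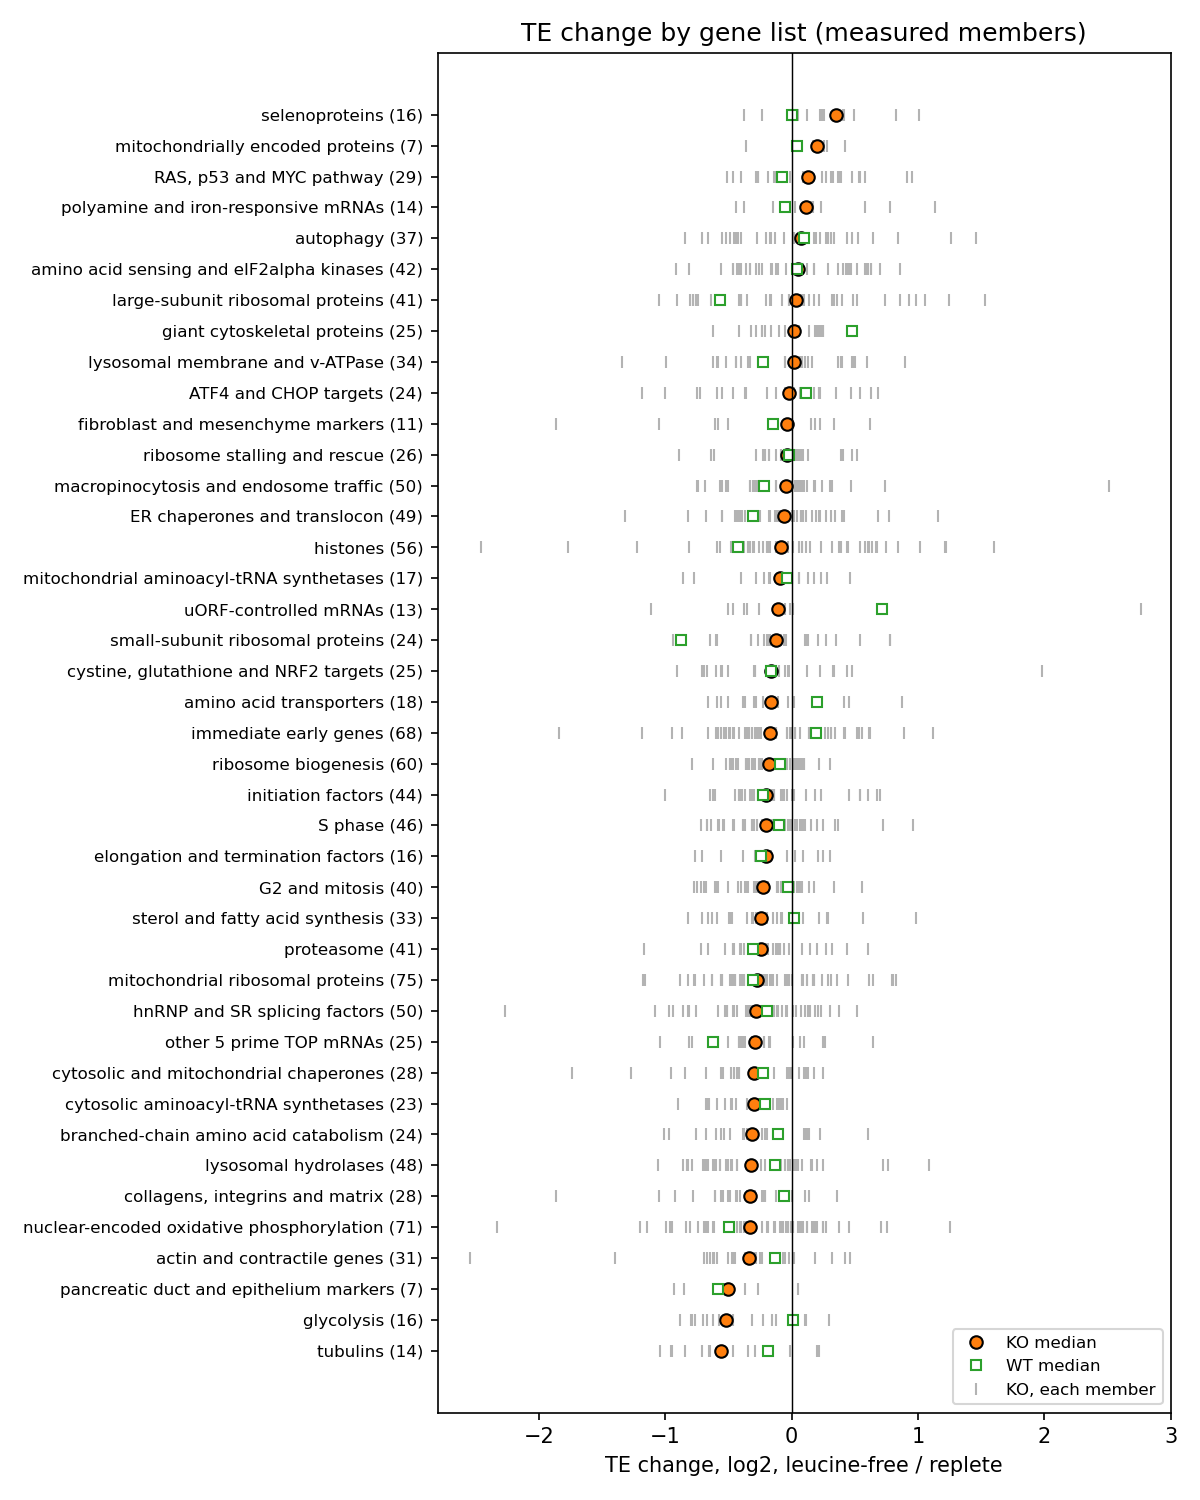
The TE change (log2, leucine-free over replete) of every measured member in KO cells (grey ticks), the KO median (orange) and the WT median (green squares) for 41 gene lists, with the number measured in brackets. KO medians run from -0.56 for tubulins to 0.35 for selenoproteins, and the KO and WT medians stand far apart for small-subunit ribosomal proteins (-0.13 and -0.88) and uORF mRNAs (-0.11 and 0.71).

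Over the 41 lists with a measured member, 32 KO medians were below 0 and 9 above 0, with the median of all genes at -0.02. The sign of 35 held under every scaling and with the length trend removed. In 16 lists no member was called, and the most called in any list was 7, the histones. Lists share genes, so they are not separate results.

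TE changes in KO cells went with the footprint density that the mRNA had in WT replete cells. The counts of that pair of libraries do not enter the KO ratios, though they enter the scaling and the count filter. Genes were split into 5 equal groups of 1820 by the footprint over RNA level in WT replete cells. From the lowest to the highest group the median KO TE change was 0.21, 0.07, -0.04, -0.12 and -0.19. Footprint medians ran from 0.17 to -0.12 and RNA medians from -0.04 to 0.06. The share of genes above 0 ran from 69.8% in the lowest group to 33.2% in the highest. Across genes the Spearman correlation was -0.31, and -0.36 among the 7112 genes of higher count, a description only since the points share libraries. Of the 33 lists with a median density above that of all genes, 30 had a KO TE median below 0, and the part of density in the list values was not tested. Glycolysis had a median log2 footprint over RNA level of 0.50, in the range of the fourth group, and a KO TE median of -0.52 against -0.12 for that group. Exonic length had a weaker relation to the KO change than to the WT change, with Spearman correlations of 0.10 and 0.33.

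**Figure D4:**
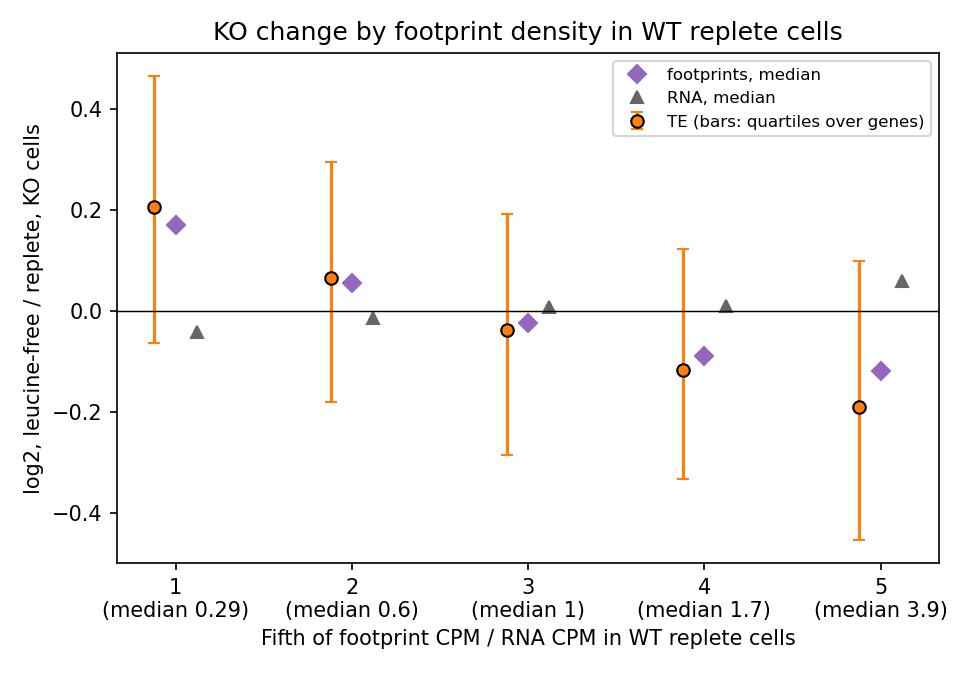
The median KO TE change (orange, bars are the quartiles over genes), with the median footprint and RNA ratios, for 5 groups of 1820 genes ordered by footprint CPM over RNA CPM in WT replete cells. TE medians run from 0.21 in the group of lowest density to -0.19 in the group of highest density, and the quartiles of neighbouring groups overlap.

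The KO and WT changes, whose ratios share no library but were scaled and filtered together, had a Spearman correlation of 0.15 across genes. The KO minus WT difference was called higher in 403 genes (4.43%) and lower in 311 (3.42%). With trimmed means taken over all protein-coding genes the numbers were 509 and 247. Of the 143 genes called higher in KO cells, 8 were also called higher in WT cells, against 1.14% of all genes, 10 were called lower, against 1.76%, and 88 had a called difference in that direction. Of the 130 called lower, 13 were called lower in WT cells, 2 were called higher, and 67 had a called difference in that direction. The difference contains the KO value that chose these genes, so the 88 and 67 are a description only.

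Among the lists, ribosomal proteins and uORF mRNAs stood at opposite ends of that difference. Small-subunit ribosomal proteins had a median difference of 0.81, with 8 of 24 called higher and 1 lower, and large-subunit ones 0.51, with 7 of 41 higher and 1 lower. uORF mRNAs had a median of -0.86, with 6 of 13 called lower and 12 below 0. Giant cytoskeletal proteins had -0.49, glycolysis -0.32, and selenoproteins 0.31. The largest difference upward among genes of mean count 100 or more was 3.25 (3.05 to 3.46) for Pabpc1. Next came Fuca1 at 2.65, the core histone genes Hist1h4k at 2.24 and Hist1h4a at 2.22, and Odc1 at 2.18. In WT replete cells Hist1h4k and Hist1h4a had 50 and 53 RNA counts against 1762 and 1779 footprint counts, so their values are uncertain. The lowest were Slc35c1, a GDP-fucose transporter, at -1.88, Magi1, a junction scaffold, at -1.85, the ephrin receptor Ephb3 at -1.83, Prag1 at -1.78 and Adnp at -1.76. Of the exonic bases of Adnp, 82.1% were shared with another gene. The KO call of Slc35c1 and of Ephb3 was lost with library totals, at -0.97 and -0.95.

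**Figure D5:**
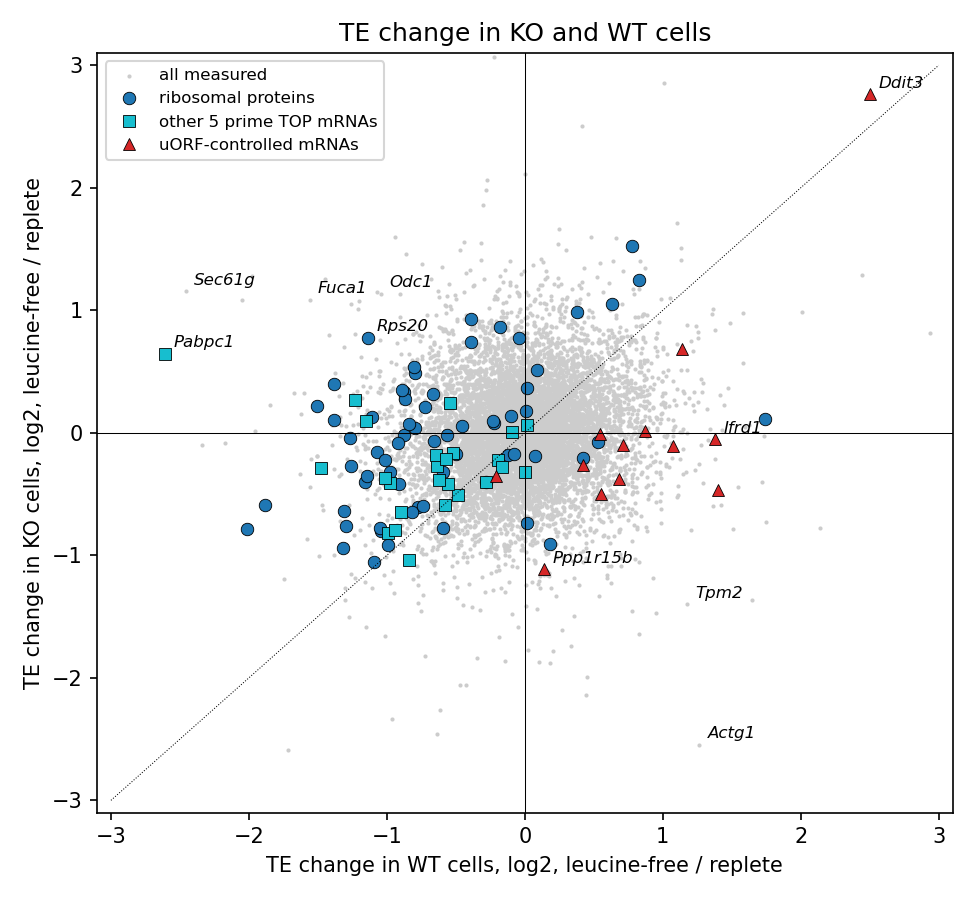
The TE change (log2, leucine-free over replete) of each measured gene in WT cells (x) and KO cells (y), with ribosomal protein, other TOP and uORF mRNAs marked; the dotted line marks equal changes, and 1 gene lies outside the axes. Most ribosomal protein mRNAs lie left of 0 and around 0 in height, 12 of 13 uORF mRNAs lie right of 0, and Pabpc1 stands at -2.61 in WT and 0.65 in KO cells.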

How the data were processed

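RNA-seq and ribosome profiling of Gcn2 WT and Gcn2 KO cells in replete or leucine-free medium gave 1 library per group. The deposited files hold unnormalised read counts for each gene. Per the file headers, featureCounts 1.6.4 counted exons of Ensembl release 96 without options for strandedness, multi-mapping or overlapping features. The submitters' processing notes also name cutadapt, STAR, Subread and the build GRCm38.

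Ensembl identifiers gave symbols to 55450 of the 55536 genes listed, and 21425 genes were taken as protein-coding by their symbol in RefSeq's GRCm38.p6 table. Counts were scaled within each assay with TMM factors (edgeR 4.0.16, R 4.3.3) over protein-coding genes of mean count at least 30. RNA-seq factors lay between 0.989 and 1.01, footprint factors between 0.980 and 1.03. Of the 9172 genes measured in footprints, 72 were not measured in RNA-seq. CPM is the count over the scaled protein-coding total times 1000000. Log2 ratios used a prior count of 0.5. TE changes and KO minus WT differences have 95% Wald counting intervals. Reads were amplified by PCR and carry no stated molecular identifiers, so intervals cover counting error only. No test across cultures was possible and no p-value was computed. Python 3.11.15 was used with pandas 2.3.3, numpy 2.4.6, matplotlib 3.10.9 and scipy 1.17.1. The scripts were tested on simulated data.

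The members and the 43 gene lists were chosen with earlier results of these data known. Named genes are the 12 highest and 12 lowest called changes with mean KO counts of at least 100 in both assays, up to 4 called members and both ends of each list, 19 fixed genes, the 5 largest in each of 4 classes of RNA and footprint change, and the 5 largest KO minus WT differences each way. Alternatives were library totals, DESeq2 1.42.0 size factors, other count filters, a prior count of 5, removal of the length trend, a 3 SD rule and, chosen after seeing the data, TMM over all protein-coding genes and genes sharing no exonic base. A planned comparison with protein length and amino acid content was not run, and protein sequences were not used here.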

Additional observations from a re-analysis of the deposited data

Results flagged for a closer look

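For 7 named genes the TE change was called in both genotypes in opposite directions. The KO minus WT difference rests on 1 library a condition and was not tested against replicates. It was 3.61 for Sec61g, a subunit of the protein translocon, whose TE change was 1.16 in KO and -2.46 in WT cells, with 12 footprint counts in WT leucine-free cells. For Ndufa6 it was 2.70, from 1.26 and -1.45, with 17 to 99 RNA counts a library. For Fuca1 it was 2.65, from 1.09 and -1.56, and the WT replete library alone held 1018 of its footprint counts, against 77, 118 and 144 elsewhere. For Hist1h4a, a core histone gene, it was 2.22, from 1.01 and -1.21, with 53 to 217 RNA counts a library. For Odc1 it was 2.18, from 1.14 and -1.04. For Actg1 it was -3.81, from -2.55 and 1.27, and for Tpm2 it was -2.57, from -1.40 and 1.17, with 16 RNA counts for Tpm2 in WT leucine-free cells. The KO calls of Fuca1 and Hist1h4a did not pass the 3 SD rule.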

How the results depend on the processing

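No paired analysis was possible because each group is 1 library. The 143 higher and 130 lower TE calls in KO cells became 255 and 217 at a minimum mean count of 10, 46 and 63 at 100, 441 and 308 with no filter beyond 1 count, 83 and 71 over genes sharing no exonic base, and 24 and 29 with the 3 SD rule. The share of calls that were higher was 52.4%, and 67.1% with library totals, 42.2% at a minimum mean count of 100 and 58.9% with no filter. The KO minus WT calls, 403 higher and 311 lower, became 246 and 149 at a minimum mean count of 100 and 261 and 175 over genes sharing no exonic base, and 519 were lower with no filter. Higher calls were 56.4% of these, and 67.3% with TMM over all protein-coding genes. With library totals the list medians of cytosolic aminoacyl-tRNA synthetases (-0.21), macropinocytosis (0.035), ribosome biogenesis (-0.10) and selenoproteins (0.43) moved beyond their spread. The other 365 list values did not. Of the named-gene values, 1121 stayed on their side of the rule, 17 lost it, 5 gained it and 9 moved. The stricter filters test fewer genes. The cause of the other shifts was not tested. Depth was least in the WT leucine-free footprint library, with 2425740 protein-coding reads, which enters the KO minus WT values.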

Other observations

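Proteasome and cell-cycle genes had KO TE medians below 0 with few calls. Of 41 proteasome genes, 34 were below 0, the median was -0.24 and 1 was called, Psma5, a subunit of the proteolytic core, at -1.17 (-1.52 to -0.82). Psme4, a proteasome activator, was the highest at 0.60. G2 and mitosis genes had a median of -0.23, with 31 of 40 below 0, from -0.77 for Ccnb1, cyclin B1, to 0.56 for Cenpa, the centromere histone. S phase genes had a median of -0.20. Splicing factors of the hnRNP and SR families had a median of -0.28, with 2 of 50 called lower and a lowest value of -2.27. Hnrnpf was called lower at -1.08, from 184 and 59 footprint counts, against 0.62 in WT cells. Of its exonic bases 26.5% were shared with another gene. Sterol and fatty acid synthesis genes had a median of -0.24 with 0 of 33 called.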
